A study of Mus musculus with 4 samples.

Results

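The transcription factor gene Trp53 and 9 genes known as its targets (Mdm2, Ccng1, Bax, Bbc3, Pmaip1, Phlda3, Zmat3, Trp53inp1 and Sesn1) were followed in mouse bone marrow cells labelled Lsk, a marrow fraction sorted for Sca-1 and Kit and against lineage markers, in which blood stem cells and early progenitors are enriched. The 10 genes were taken by symbol from a table of 55399 genes, and all 10 passed the filter on low counts that left 16393 genes for testing. Bulk RNA-seq libraries came from 2 samples labelled Ppm1bCKO, a conditional knockout of the phosphatase gene Ppm1b, and from 2 samples labelled Ppm1bfl/fl, whose Ppm1b alleles are flanked by loxP sites. The Cre line, the age of the animals and whether a library pools animals are not given in the sources used here, and no agent is named in the labels. Since nothing in the labels ties a replicate to its own mouse, p-values reflect the spread of these libraries, which may be technical in part. The smallest two-sided p of an exact permutation test with 2 libraries a genotype is 0.333, so single values were judged by the fit across all genes.

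The p53 protein, encoded by Trp53, is a DNA-binding transcription factor that is kept scarce by the ubiquitin ligase Mdm2 and stabilised when DNA is damaged or other stresses act. It then raises transcription of genes that halt the cell cycle, restrain growth signals or trigger cell death, and of Mdm2 itself, which closes a negative feedback loop. In haematopoietic stem cells p53 is known for its part in quiescence and in the response to irradiation. Its activity is set largely at the protein level, by phosphorylation and turnover, which RNA counts do not measure.

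p53 binds a response element made of a pair of half-sites, each 10 bases long. RefSeq promoter windows of 300 bases (GRCm38.p6) were found for 7 of the 10 genes, 10 windows in all since Bbc3 has 3 and Sesn1 has 2. A full site with at most 2 mismatches was found in 3 of these 10 windows, those of Ccng1, Bax and Sesn1, and in 4.09% of all 32851 windows. An exact half-site was present in 5 of the 10 windows, against 8.36% of all windows. The 10 windows had a median GC content of 68.8%, against 52.7% in all windows. In 35 windows of the other p53 targets listed below, 11.4% held a full site and 25.7% an exact half-site. Their median GC content was 62.3%. A match is a description of the letters and not a measured binding site. The 3 windows are shown because they hold a full site, with the half-sites in capitals and each sequence read 5′ to 3′ on the strand of its gene.
Ccng1, chr11:40755237-40755536, minus strand: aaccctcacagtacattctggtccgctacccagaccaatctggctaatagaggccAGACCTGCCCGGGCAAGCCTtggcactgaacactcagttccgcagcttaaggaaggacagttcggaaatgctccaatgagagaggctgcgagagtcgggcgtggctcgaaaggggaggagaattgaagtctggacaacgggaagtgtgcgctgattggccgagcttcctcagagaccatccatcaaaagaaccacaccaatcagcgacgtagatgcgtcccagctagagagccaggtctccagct
Bax, chr7:45466849-45467148, minus strand: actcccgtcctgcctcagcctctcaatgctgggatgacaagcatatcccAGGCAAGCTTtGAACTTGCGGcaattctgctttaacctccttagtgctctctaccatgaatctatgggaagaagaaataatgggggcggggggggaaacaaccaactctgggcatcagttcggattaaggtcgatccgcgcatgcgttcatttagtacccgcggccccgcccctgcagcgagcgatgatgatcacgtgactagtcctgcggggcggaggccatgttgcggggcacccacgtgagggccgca
Sesn1, second start, chr10:41887189-41887488, plus strand: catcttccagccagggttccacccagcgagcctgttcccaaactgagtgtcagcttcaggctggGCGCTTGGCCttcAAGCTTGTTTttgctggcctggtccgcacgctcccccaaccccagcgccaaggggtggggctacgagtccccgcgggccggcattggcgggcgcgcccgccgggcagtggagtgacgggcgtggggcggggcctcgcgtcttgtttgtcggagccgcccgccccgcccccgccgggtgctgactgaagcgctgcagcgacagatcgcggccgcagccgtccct

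The Ccng1 site began at position -195 relative to the annotated start (position 0) and had 1 mismatch and a spacer of 0 bases. In Bax the site began at -201, with 2 mismatches and a spacer of 1 base, and in Sesn1 at -186, with 2 mismatches and a spacer of 3 bases. The windows of Mdm2 (chr10:117710709-117711008, minus strand) and of Trp53 itself (chr11:69580109-69580408, plus strand) held an exact half-site without a partner, at -186 and -75. These half-sites are shown in capitals with 10 bases on either side.
Mdm2 half-site: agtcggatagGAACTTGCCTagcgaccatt
Trp53 half-site: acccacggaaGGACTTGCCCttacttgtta

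The known p53-responsive promoter of Mdm2 lies in its first intron, which is outside this window. The windows of Phlda3 and Bbc3 and the first window of Sesn1 held no exact half-site and no full site.

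Total counts were 22393973 and 24856083 in the Ppm1bCKO libraries and 26002277 and 30045382 in the Ppm1bfl/fl libraries. Ppm1bCKO replicate 2 stood apart. Over the 500 genes that differed most in each pair of libraries, its root-mean-square log2 difference from the other 3 libraries was 2.28 to 2.66, against 1.71 to 2.08 among those 3. It held 2 counts of 4 Y-linked genes (Ddx3y, Eif2s3y, Kdm5d and Uty), against 5870 in Ppm1bCKO replicate 1 and 5984 and 6396 in the Ppm1bfl/fl libraries. Since Y-linked counts differed so widely within Ppm1bCKO, its 2 libraries did not come from the same cells. These counts were also unbalanced between the genotypes, and the part of sex in the fold changes was not tested. The levels in Ppm1bCKO replicate 2 also followed gene length, as given below. Fold changes without that library are given beside those that it moves. Ppm1b, the targeted gene, stood at 84.3 and 121 CPM (counts scaled to library size, TMM-normalised) in the libraries labelled Ppm1bCKO, against 80.8 and 82.5 CPM in the Ppm1bfl/fl libraries. A gene-level count cannot reveal the loss of single exons, and each direction therefore rests on the labels.

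Transcripts of other blood cell types were present in all 4 libraries. Genes that mark the sorted fraction (Kit, Ly6a, Cd34, Flt3, Procr, Hlf and Mecom) summed to 419 and 329 CPM in the Ppm1bCKO libraries and to 493 and 404 CPM in the Ppm1bfl/fl libraries. Erythroid markers summed to 11180 and 16032 CPM in Ppm1bCKO and to 7449 and 13218 CPM in Ppm1bfl/fl. The levels below therefore describe all the cells collected. In bulk RNA, fewer cells of a type and less RNA per cell cannot be told apart.

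None of the 10 genes passed the test between the genotypes. In simulated counts this test recovered 37 of 100 genes changed 2-fold. Of the 10, 0 had an edgeR adjusted p under 0.05, while 61 of 16393 tested genes did (0.372%). The unadjusted p was under 0.05 for 0 of the 10 and for 6.44% of all tested genes, and DESeq2 (1.19% of all genes called) and limma-voom (0.305%) also called 0 of the 10. The log2 fold changes ran from -0.22 to 0.66, with 8 positive and 2 negative and a median of 0.15, beside a median of -0.0032 over all tested genes. Both Ppm1bCKO libraries lay above both Ppm1bfl/fl libraries for 6 of the 10 genes and below them for 1, whereas 20.6% of all tested genes lay above and 20.6% lay below. Among the 6 is Phlda3, where the closest libraries of the genotypes stood at 1.891 CPM (Ppm1bCKO) and 1.890 CPM (Ppm1bfl/fl). For Zmat3, the 1 below, these were 8.31 and 8.34 CPM. For 7 of the 10 genes Ppm1bCKO replicate 2 was the highest of the 4 libraries, as it was for 36.7% of all tested genes.

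**Figure D1:**
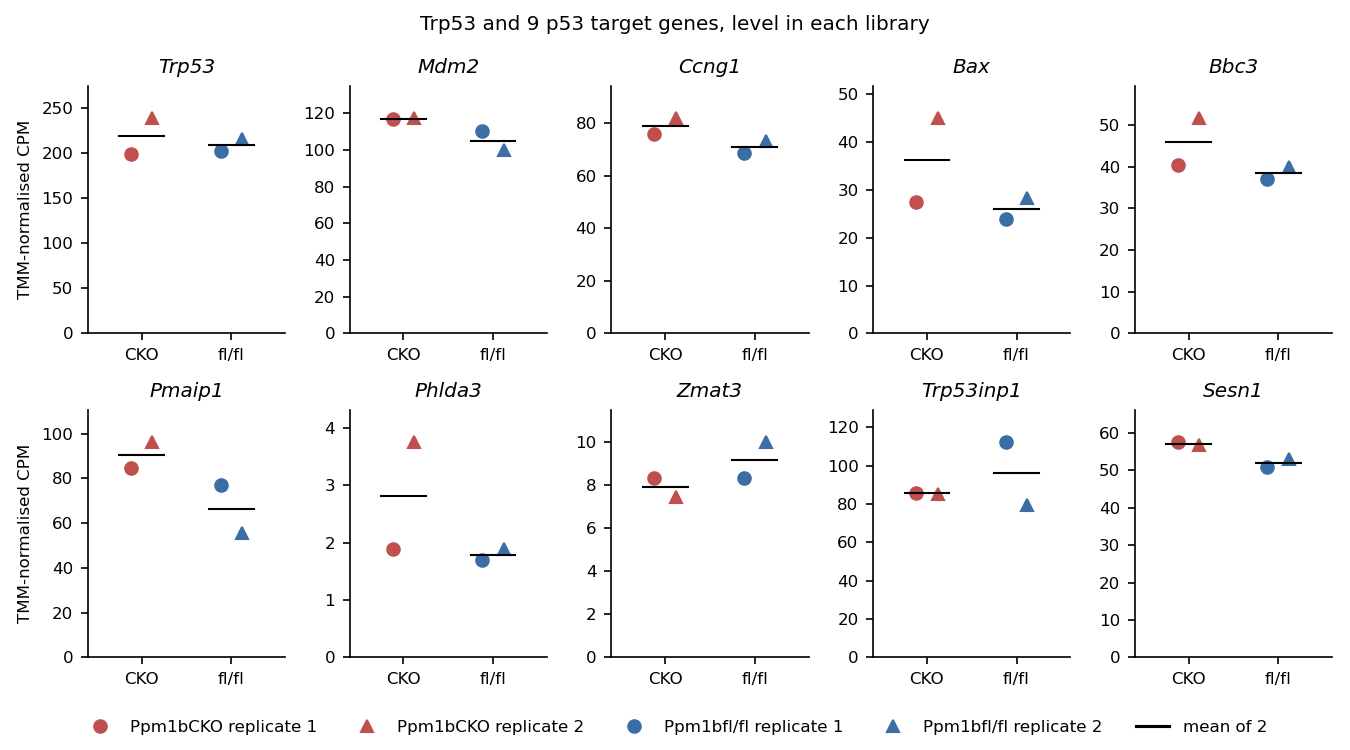
Each panel plots 1 gene, with the TMM-normalised CPM of each library on the y axis (linear, from 0), Ppm1bCKO on the left and Ppm1bfl/fl on the right, circles for replicate 1, triangles for replicate 2 and a line at the mean of 2. Bax, Bbc3 and Phlda3 are set apart by Ppm1bCKO replicate 2 alone, at 44.9, 51.6 and 3.75 CPM.

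The core of the feedback loop, Trp53 and Mdm2, differed little. Trp53 (ENSMUSG00000059552.13, chr11:69580359-69591873, plus strand, mm10) had 198 and 238 CPM in the Ppm1bCKO libraries, against 202 and 216 CPM in the Ppm1bfl/fl libraries. The groups overlapped, with the lowest and the highest value both in Ppm1bCKO. Its log2 fold change was 0.06 ± 0.17 (SE, n = 2 libraries each; 95% interval -0.32 to 0.45; edgeR adjusted p = 0.919), and it was -0.08 without Ppm1bCKO replicate 2. The interval spans changes of either sign, so these libraries do not show that the levels are equal.

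Trp53 lies head to head with Wrap53, which encodes a telomerase RNA-binding protein, with 103 bases between the exons of these genes and no shared exonic base. Wrap53 had 25.1 and 32.4 CPM in Ppm1bCKO and 22.7 and 28.6 CPM in Ppm1bfl/fl, so the groups overlapped there too.

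Mdm2 (ENSMUSG00000020184.15, chr10:117688875-117710758, minus strand), the ligase gene that p53 itself induces, had 117 and 117 CPM in the Ppm1bCKO libraries, against 110 and 99.9 CPM in the Ppm1bfl/fl libraries. Both Ppm1bCKO libraries were above both others, at a log2 fold change of 0.16 ± 0.16 (95% interval -0.21 to 0.52, edgeR adjusted p = 0.772). Across the alternatives it lay between 0.09 and 0.23. The level of Mdm2 per kilobase of exon was 0.469 and 0.392 of that of Trp53 in the Ppm1bCKO libraries and 0.434 and 0.369 of it in the Ppm1bfl/fl libraries, and these ratios overlapped.

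Trp53inp1 (ENSMUSG00000028211.11, chr4:11156431-11174379), a stress-induced nuclear protein gene whose product acts with p53 and in autophagy, had 85.9 and 85.3 CPM in Ppm1bCKO and 112 and 79.7 CPM in Ppm1bfl/fl. The Ppm1bfl/fl replicates lay on either side of both Ppm1bCKO libraries. Its log2 fold change was -0.16 ± 0.20 (95% interval -0.61 to 0.29, edgeR adjusted p = 0.802). Without Ppm1bfl/fl replicate 1 the value was 0.10, so the sign rested on that library.

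With all 4 libraries, the genes of the mitochondrial death pathway had 3 of the 4 largest log2 fold changes among the 10. Bax encodes a protein that forms pores in the outer mitochondrial membrane, and Bbc3 (PUMA) and Pmaip1 (NOXA) encode BH3-only proteins that free or activate such pore formers. Their log2 fold changes were 0.47, 0.26 and 0.45, and none passed the test. The ranking rested on Ppm1bCKO replicate 2. Without that library Bax and Bbc3 were at 0.07 each, below Mdm2 and Sesn1 at 0.15 each, and Pmaip1 was at 0.35.

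Bax (ENSMUSG00000003873.11, chr7:45461697-45466898, minus strand) had 27.4 and 44.9 CPM in the Ppm1bCKO libraries, against 23.9 and 28.2 CPM in the Ppm1bfl/fl libraries. Ppm1bCKO replicate 2 was high, and replicate 1 lay between the Ppm1bfl/fl libraries. The log2 fold change was 0.47 ± 0.25 (95% interval -0.10 to 1.04, edgeR adjusted p = 0.717). Without Ppm1bCKO replicate 2 it was 0.07. Without Ppm1bCKO replicate 1 it was 0.78 (edgeR adjusted p = 0.0053), in a fit where the lone Ppm1bCKO library is assumed to vary like the Ppm1bfl/fl pair and where 19.4% of all tested genes were called. Of the exonic bases of Bax, 12.2% are shared with the gene Gm45808 on the same strand, which had 0 to 1 counts a library, and reads in the shared bases could have been left uncounted.

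Pmaip1 (ENSMUSG00000024521.8, chr18:66458533-66465565) had 84.8 and 96.1 CPM in Ppm1bCKO, against 77.0 and 55.8 CPM in Ppm1bfl/fl. Both Ppm1bCKO libraries were above both others, and the Ppm1bfl/fl pair was wider apart than the Ppm1bCKO pair. The log2 fold change was 0.45 ± 0.20 (95% interval -0.005 to 0.90; unadjusted p = 0.052, edgeR adjusted p = 0.717), the smallest unadjusted p of the 10. It was 0.35 without Ppm1bCKO replicate 2, 0.23 without Ppm1bfl/fl replicate 2 and 0.69 without Ppm1bfl/fl replicate 1.

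Bbc3 (ENSMUSG00000002083.13, chr7:16308393-16318205) had 40.4 and 51.6 CPM in the Ppm1bCKO libraries and 36.9 and 39.9 CPM in the Ppm1bfl/fl libraries. Replicate 1 of Ppm1bCKO was above the higher Ppm1bfl/fl library by less than the Ppm1bfl/fl replicates differed. Bbc3 had a log2 fold change of 0.26 ± 0.18 (95% interval -0.16 to 0.68, edgeR adjusted p = 0.723), and 0.07 without Ppm1bCKO replicate 2.

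**Figure D2:**
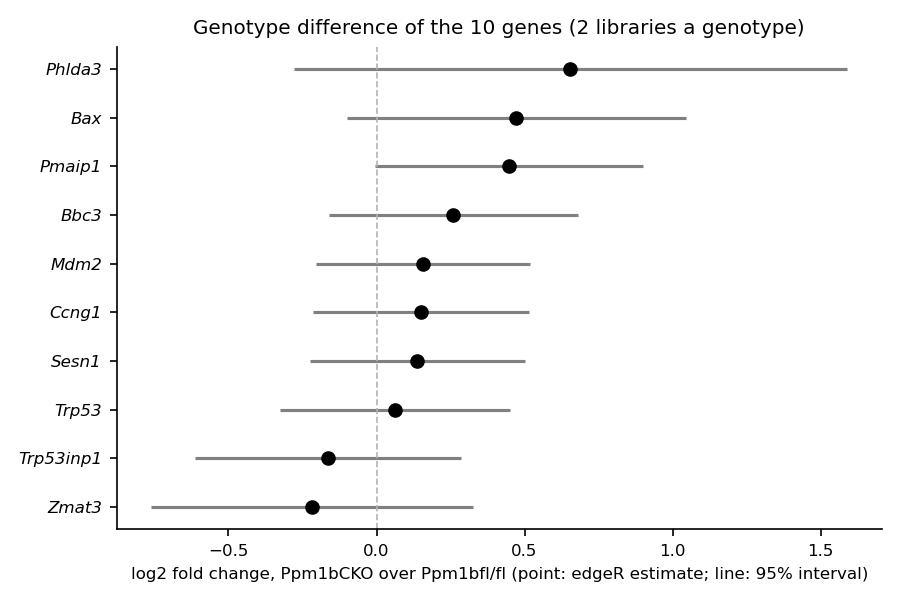
Points are edgeR log2 fold changes of Ppm1bCKO over Ppm1bfl/fl for the 10 genes and lines are their 95% intervals, from 2 libraries a genotype. All 10 intervals include 0, and the widest, -0.28 to 1.59, belongs to Phlda3, the gene with the fewest reads.

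Among targets outside the death pathway, Ccng1 and Sesn1 varied little across libraries. Ccng1 (ENSMUSG00000020326.7, chr11:40748552-40755311) encodes cyclin G1, which guides the phosphatase PP2A to Mdm2. It had 75.9 and 82.0 CPM in Ppm1bCKO and 68.9 and 73.4 CPM in Ppm1bfl/fl. The groups did not overlap, and the log2 fold change was 0.15 ± 0.16 (95% interval -0.22 to 0.52, edgeR adjusted p = 0.783), and 0.09 without Ppm1bCKO replicate 2. Sesn1 (ENSMUSG00000038332.13, chr10:41809935-41908424) encodes sestrin 1, which restrains the growth kinase complex mTORC1. Its levels were 57.5 and 56.8 CPM in Ppm1bCKO and 50.8 and 53.1 CPM in Ppm1bfl/fl. These groups did not overlap either, with a log2 fold change of 0.14 ± 0.16 (95% interval -0.22 to 0.50, edgeR adjusted p = 0.796). The highest of the 4 libraries was 1.19-fold above the lowest for Ccng1 and 1.13-fold above it for Sesn1.

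Phlda3 and Zmat3 were the least abundant. Phlda3 (ENSMUSG00000041801.5, chr1:135766119-135769136), which encodes a small protein that blocks activation of the kinase AKT, had 43 and 89 counts in the Ppm1bCKO libraries and 45 and 57 counts in the Ppm1bfl/fl libraries. In CPM these were 1.89 and 3.75 in Ppm1bCKO, against 1.69 and 1.89 in Ppm1bfl/fl. Exact Poisson 95% intervals of the counts were 31.1 to 57.9 and 71.5 to 110 in Ppm1bCKO, and 32.8 to 60.2 and 43.2 to 73.9 in Ppm1bfl/fl. Ppm1bCKO replicate 2 was high, while replicate 1 could not be told from the Ppm1bfl/fl libraries at this depth. The log2 fold change, 0.66 ± 0.41 (95% interval -0.28 to 1.59, edgeR adjusted p = 0.719), was 0.08 without Ppm1bCKO replicate 2 and 1.06 without replicate 1.

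Zmat3 (ENSMUSG00000027663.12, chr3:32334792-32366014, minus strand) encodes a zinc finger protein that binds RNA. It had 8.31 and 7.46 CPM in Ppm1bCKO, against 8.34 and 9.98 CPM in Ppm1bfl/fl. Both Ppm1bCKO libraries were below both others, replicate 1 by less than its counting error. For Zmat3 the log2 fold change was -0.22 ± 0.24 (95% interval -0.76 to 0.33, edgeR adjusted p = 0.787). It was -0.14 without Ppm1bCKO replicate 2, -0.34 without Ppm1bfl/fl replicate 1 and -0.08 without Ppm1bfl/fl replicate 2.

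Compared per kilobase of exonic length, Trp53 itself was the most abundant of the 10 genes, at 52.8 ± 4.4 CPM per kilobase (SD over the 4 libraries). Pmaip1 followed at 28.7 ± 6.2, with a range that did not reach that of Trp53. Next were Mdm2 at 21.9 ± 1.6, Ccng1 at 21.4 ± 1.6, Bbc3 at 19.9 ± 3.0 and Bax at 19.7 ± 6.0 CPM per kilobase. Trp53inp1 at 14.0 ± 2.2 and Sesn1 at 13.7 ± 0.80 came after them. From Pmaip1 to Sesn1, the range of each gene overlapped that of the next. Phlda3 at 1.48 ± 0.62 and Zmat3 at 0.745 ± 0.092 CPM per kilobase lay below the rest without overlap. Exonic length here sums all annotated exons of a gene, whether or not they were used, and was 11435 bases for Zmat3.

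The genes whose profile over the 4 libraries was most like that of Trp53 were Clptm1l, Tmem65 and Rad9a, by the root-mean-square distance of log2 CPM centred on each gene's mean (0.00378, 0.00573 and 0.00763). Over 4 libraries this likeness separates little, since 1848 of 9993 genes compared lay within a distance of 0.1.

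The position of Ppm1bCKO replicate 2 followed gene length, for all genes and for the 10. Over the genes with an average log2 CPM of at least 1, the median log2 ratio of this library to the mean of the other 3 was 0.40 in the shortest of 5 equal groups by exonic length (up to 2231 bases), 0.0057 in the middle group and -0.31 in the longest. The same medians for the other 3 libraries ran from -0.19 to -0.15 in the shortest group and from 0.06 to 0.12 in the longest, each set against a mean that includes Ppm1bCKO replicate 2.

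Among the 10 genes, the shortest were Phlda3 (1559 bases), Bax (1576 bases) and Bbc3 (2124 bases), and Ppm1bCKO replicate 2 stood 1.04, 0.76 and 0.40 above the mean of the other 3 libraries on the log2 scale for them. For the longest, Trp53inp1 (6475 bases) and Zmat3 (11435 bases), the log2 ratio was -0.12 and -0.25. The 5 genes between them, from 2732 to 5083 bases, had log2 ratios of 0.08 to 0.41. Phlda3 was above the 90th percentile of its length group (0.82), and the other 9 genes lay between the 10th and 90th percentiles of theirs.

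**Figure D3:**
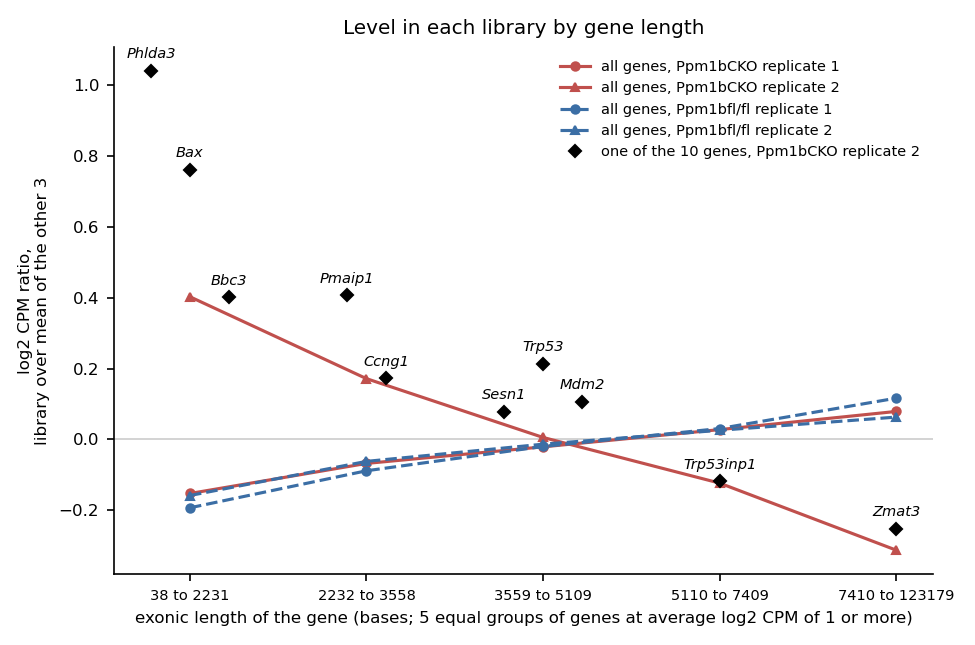
Lines give the median log2 ratio of each library to the mean of the other 3 over all genes in each of 5 groups by exonic length (x axis, in bases), and black diamonds give the same ratio in Ppm1bCKO replicate 2 for each of the 10 genes. The line of Ppm1bCKO replicate 2 falls from 0.40 in the shortest group to -0.31 in the longest, and the diamonds run the same way, with Phlda3 at 1.04 and Zmat3 at -0.25.

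With each library's trend with length removed, a setting added once the data had been seen, the log2 fold change was 0.28 for Bax, 0.13 for Bbc3, 0.45 for Phlda3 and -0.04 for Zmat3, against 0.47, 0.26, 0.66 and -0.22 with the trend left in. For Pmaip1 it was 0.37 and for Mdm2 0.19, close to 0.45 and 0.16 with the trend. The median of the 10 was 0.13 without the trend and 0.15 with it. Leaving out Ppm1bCKO replicate 2 gave a median of 0.07, with Pmaip1 (0.35), Mdm2 (0.15) and Sesn1 (0.15) the highest and 7 of the 10 values still positive.

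**Figure D4:**
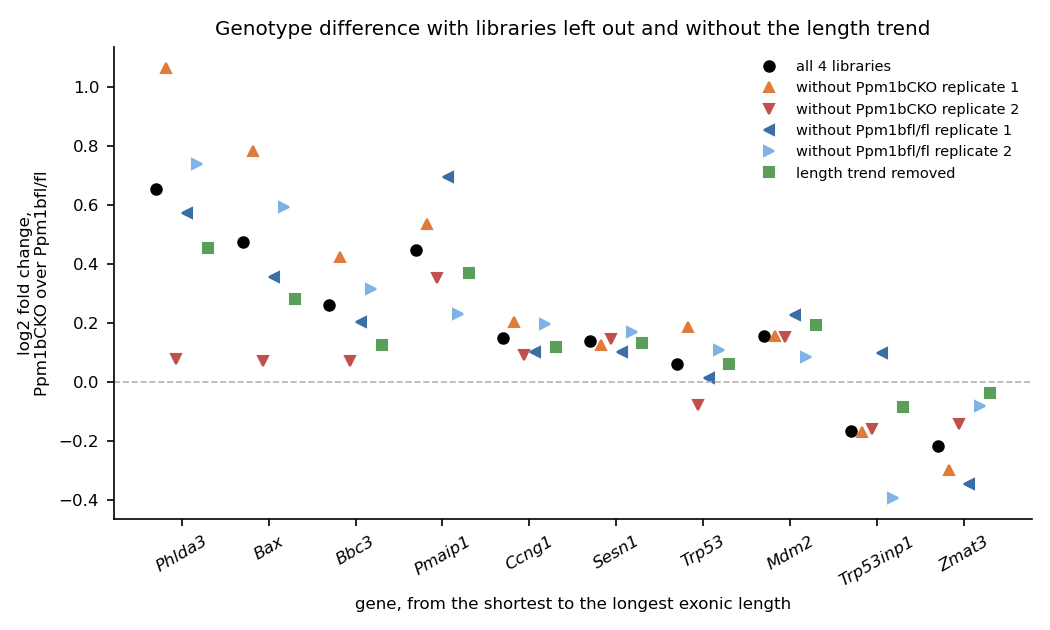
Each symbol is the edgeR log2 fold change of Ppm1bCKO over Ppm1bfl/fl for 1 gene, with all 4 libraries, with 1 library left out, or with the length trend removed, and genes run from the shortest to the longest. For Phlda3, Bax and Bbc3 the values without Ppm1bCKO replicate 2 are 0.07 to 0.08, whereas for Pmaip1 this value is 0.35.

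Genes that control p53 were examined as a list of 24, of which 23 were tested. None passed, with 0 at an unadjusted p under 0.05 (6.44% of all tested genes) and 0 called by DESeq2 or limma-voom. The list had 8 positive and 15 negative log2 fold changes and a median of -0.15. Without Ppm1bCKO replicate 2 there were 10 positive and 13 negative values and the median was -0.0049. For 13 of the 23, Ppm1bCKO replicate 2 was the lowest of the 4 libraries, as it was for 37.2% of all tested genes. The median exonic length of the list was 7766 bases, against 3753 bases over all tested genes. The upstream locus gene Cdkn2a, which encodes the Mdm2 inhibitor ARF, was not tested, with 0 to 0.084 CPM in the 4 libraries, all below what 3 counts would give.

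Mdm4, a partner of Mdm2 that inhibits p53, had 229 and 177 CPM in Ppm1bCKO and 224 and 225 CPM in Ppm1bfl/fl (log2 fold change -0.15 ± 0.18, edgeR adjusted p = 0.809). Without Ppm1bCKO replicate 2 the sign turned, at 0.03. Ppm1d, which encodes a phosphatase of the same family as Ppm1b that removes activating phosphates from p53 and ATM, had 44.3 and 48.4 CPM in Ppm1bCKO and 38.1 and 45.4 CPM in Ppm1bfl/fl. Those groups overlapped, and the log2 difference was 0.15 ± 0.17 (edgeR adjusted p = 0.796), and 0.09 without Ppm1bCKO replicate 2.

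The kinase gene Atm had 43.1 and 18.1 CPM in Ppm1bCKO, against 45.1 and 43.0 CPM in Ppm1bfl/fl. Hipk2, a kinase gene whose product phosphorylates p53, had 61.2 and 27.8 CPM in Ppm1bCKO, against 66.2 and 70.0 CPM in Ppm1bfl/fl. Ep300, the acetyltransferase gene of p300, had 201 and 104 CPM in Ppm1bCKO, against 217 and 217 CPM in Ppm1bfl/fl. In all 3 genes, whose exonic lengths were 8836 to 14273 bases, Ppm1bCKO replicate 2 was low and replicate 1 was nearer to the Ppm1bfl/fl libraries than to replicate 2. Their log2 fold changes of -0.53, -0.61 and -0.51 became -0.03, -0.15 and -0.11 without that library. With the length trend removed and all libraries kept, they were -0.41, -0.52 and -0.33.

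The smallest unadjusted p of the list belonged to Rchy1, a ubiquitin ligase gene that p53 induces (0.060), and Daxx, which encodes a chaperone that binds Mdm2 (0.069). Rchy1 had 54.0 and 71.0 CPM in Ppm1bCKO, against 47.6 and 47.0 CPM in Ppm1bfl/fl. Daxx had 73.4 and 83.7 CPM in Ppm1bCKO, against 59.4 and 64.3 CPM in Ppm1bfl/fl. For both genes the Ppm1bCKO libraries were above the others, with log2 fold changes of 0.40 ± 0.19 and 0.34 ± 0.17 (edgeR adjusted p = 0.717 for each). Without Ppm1bCKO replicate 2 these were 0.19 for Rchy1 and 0.25 for Daxx.

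A further 32 genes known as p53 targets were all tested, and 0 passed in edgeR, DESeq2 or limma-voom. At an unadjusted p under 0.05 there were 3 higher and 2 lower, beside 6.44% of all tested genes. Positive and negative log2 fold changes were 16 each, with a median of 0.0068. Without Ppm1bCKO replicate 2, positive values numbered 20 and negative values 12, with a median of 0.05. The genotypes did not overlap for 15 of the 32, 7 above and 8 below, where 41.1% of all tested genes did not overlap. The share is near that background and says nothing particular about the list.

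Perp, which encodes a membrane protein of cell junctions that p53 induces during apoptosis, had 10.8 and 18.6 CPM in Ppm1bCKO, against 6.69 and 7.53 CPM in Ppm1bfl/fl. Both Ppm1bCKO libraries were higher, at a log2 fold change of 1.05 ± 0.29 (95% interval 0.38 to 1.72, edgeR adjusted p = 0.449). For Perp it was 0.60 without Ppm1bCKO replicate 2. Gdf15, a stress-induced secreted factor of the TGF-β family, had 4.49 and 5.52 CPM in Ppm1bCKO, against 11.2 and 8.16 CPM in Ppm1bfl/fl. Its log2 fold change was -0.95 ± 0.27 (95% interval -1.57 to -0.33, edgeR adjusted p = 0.481), and here Ppm1bCKO replicate 1 was the lowest library. It was -1.11 without Ppm1bCKO replicate 2.

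Rps27l, a ribosomal protein S27-like gene with an exonic length of 816 bases, had 72.0 and 115 CPM in Ppm1bCKO, against 57.8 and 59.7 CPM in Ppm1bfl/fl (log2 fold change 0.67 ± 0.23, edgeR adjusted p = 0.650). Trp53i11 had 35.8 and 53.9 CPM in Ppm1bCKO, against 33.3 and 27.5 CPM in Ppm1bfl/fl (0.56 ± 0.23 on the log2 scale, edgeR adjusted p = 0.717). In both genes Ppm1bCKO replicate 2 was the highest library, and without it the log2 fold changes were 0.29 for Rps27l and 0.24 for Trp53i11.

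**Figure D5:**
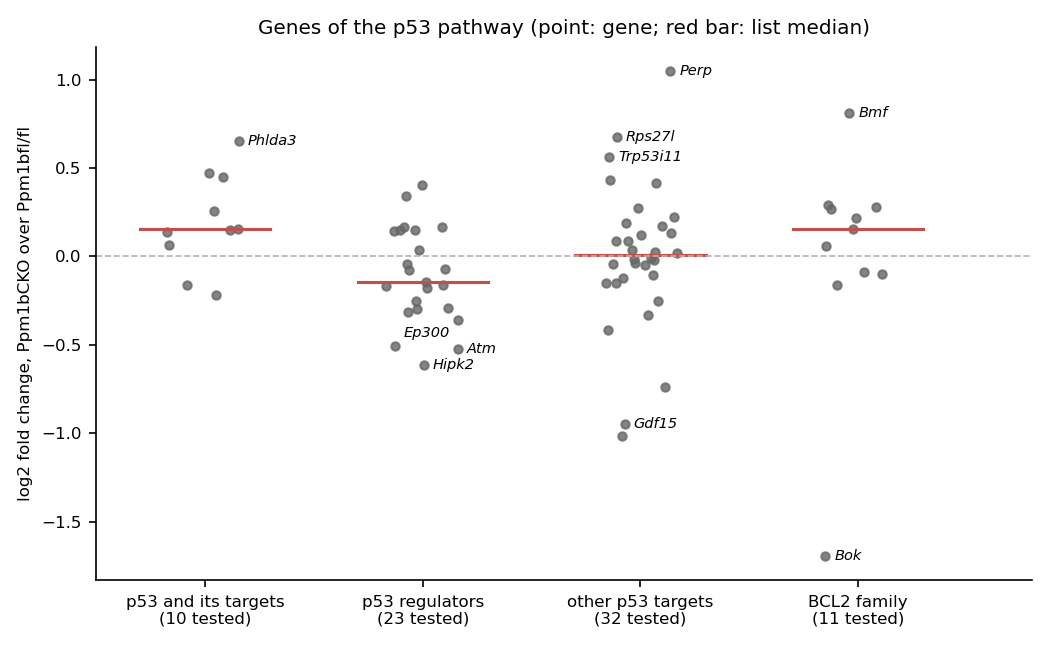
Points are edgeR log2 fold changes of single genes, Ppm1bCKO over Ppm1bfl/fl, in 4 lists and red bars are list medians, with horizontal scatter added for legibility. The medians are 0.15 for the 10 genes, -0.15 for p53 regulators, 0.0068 for other p53 targets and 0.15 for the BCL2 family, and without Ppm1bCKO replicate 2 they are 0.07, -0.0049, 0.05 and -0.03.

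The BCL2 family holds the proteins on which Bbc3 and Pmaip1 act. Besides Bax, Bbc3 and Pmaip1, 12 members were listed and 11 tested, Hrk being at 0 counts in all 4 libraries, and 0 passed in edgeR, DESeq2 or limma-voom. The unadjusted p was under 0.05 for 1 higher and 1 lower gene (6.44% of all tested genes). The median log2 fold change was 0.15, with 7 positive and 4 negative. It was -0.03 without Ppm1bCKO replicate 2 and -0.0027 without Ppm1bfl/fl replicate 1, with 5 positive and 6 negative values each time. Among the genes that protect from Bax, Mcl1 had 594 and 705 CPM in Ppm1bCKO and 539 and 533 CPM in Ppm1bfl/fl (log2 fold change 0.28 ± 0.18, edgeR adjusted p = 0.721), and its log2 fold change was 0.15 without Ppm1bCKO replicate 2. Bcl2l1 had 63.0 and 86.1 CPM in Ppm1bCKO and 53.7 and 74.7 CPM in Ppm1bfl/fl, and Bcl2 had 57.0 and 50.3 CPM in Ppm1bCKO and 66.4 and 53.6 CPM in Ppm1bfl/fl. Both of these overlapped between the genotypes. The log2 fold change of Bcl2l1 was 0.22, and -0.03 without Ppm1bCKO replicate 2. That of Bcl2 was -0.16, and -0.07 without that library.

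Bmf, a BH3-only gene, had 16.4 and 28.1 CPM in Ppm1bCKO, against 12.6 and 12.7 CPM in Ppm1bfl/fl. Both Ppm1bCKO libraries were higher, and the log2 fold change was 0.81 ± 0.27 (95% interval 0.19 to 1.44, edgeR adjusted p = 0.648). For Bmf it was 0.37 without Ppm1bCKO replicate 2. Bok, a relative of Bax, was scarce, at 0.264 and 0.211 CPM (6 and 5 counts) in Ppm1bCKO, against 0.827 and 0.729 CPM (22 counts each) in Ppm1bfl/fl. On the log2 scale the difference was -1.69 ± 0.57 (edgeR adjusted p = 0.650), and -1.54 without Ppm1bCKO replicate 2. Bad, another BH3-only gene, had 17.0 and 28.1 CPM in Ppm1bCKO and 19.4 and 18.1 CPM in Ppm1bfl/fl, with replicate 1 of Ppm1bCKO the lowest library and replicate 2 the highest. The log2 fold change of Bad was 0.27 with all libraries and -0.14 without Ppm1bCKO replicate 2.

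The level of Bax relative to Bcl2, both per kilobase of exon, was 2.79 and 5.19 in the Ppm1bCKO libraries and 2.09 and 3.05 in the Ppm1bfl/fl libraries. Ppm1bCKO replicate 2 was the highest and replicate 1 lay between the Ppm1bfl/fl libraries. The exonic length of Bax is 1576 bases and that of Bcl2 9157 bases, and the part of gene length in this ratio was not tested.

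Markers of other cell types differed between the same libraries. The 85 markers in 10 cell type lists were all tested, none was at 0 counts in all libraries, and for 49 the genotypes did not overlap (41.1% of all tested genes). B cell markers summed to 285 and 622 CPM in Ppm1bCKO, against 185 and 191 CPM in Ppm1bfl/fl, with 8 of 8 above. Eosinophil markers summed to 4530 and 7952 CPM in Ppm1bCKO, against 3006 and 3318 CPM in Ppm1bfl/fl, with 7 of 8 above. Plasmacytoid dendritic cell markers (312 and 420 CPM in Ppm1bCKO, 229 and 200 CPM in Ppm1bfl/fl) had 7 of 8 above, and T and NK cell markers (209 and 249 CPM in Ppm1bCKO, 196 and 173 CPM in Ppm1bfl/fl) 7 of 9.

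Macrophage markers summed to 431 and 545 CPM in Ppm1bCKO, against 731 and 766 CPM in Ppm1bfl/fl, with 8 of 10 below. Plasma cell markers summed to 765 and 1021 CPM in Ppm1bCKO, against 2805 and 1686 CPM in Ppm1bfl/fl, with 5 of 8 below and 1 above. Neutrophil, erythroid, stromal and sorted-fraction lists had 0 to 3 members without overlap. Summed levels of B cell, eosinophil, plasmacytoid dendritic cell, T and NK cell, neutrophil and erythroid markers were highest in Ppm1bCKO replicate 2. Those of plasma cell, macrophage, stromal and sorted-fraction markers were not. Of the 10 genes, 7 (Trp53, Mdm2, Ccng1, Bax, Bbc3, Phlda3 and Pmaip1) were highest in that library, where 36.7% of all tested genes were highest. The part of cell composition in the levels of these genes was not tested.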

How the data were processed

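Transcript levels came from bulk RNA-seq of 4 libraries, which were grouped by the genotype in their labels. The deposited table holds raw whole-number counts per gene and library, which the authors did not normalise. Per the submitters' processing notes the build was mm10 and the tools were featureCounts 2.0.1, HISAT2 2.2.0 and Trim Galore 0.6.7. Strandedness, annotation release and handling of multi-mapped reads are not given in the sources used here. Gene symbols came from GENCODE M21 by Ensembl identifier, which matched 55139 of 55399 genes. Exonic length in bases is a further column of the deposited table.

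The test was edgeR's robust quasi-likelihood test (edgeR 4.0.16, R 4.3.3) with TMM factors, after filterByExpr (at least 10 counts, 15 in total). Benjamini-Hochberg adjustment ran over all 16393 genes tested, at a threshold of 0.05, and "edgeR adjusted p" stands for this value. CPM values use the same TMM factors, and fold changes are Ppm1bCKO over Ppm1bfl/fl. Standard errors and 95% intervals of log2 fold changes come from the edgeR statistic. At total counts of 22393973 to 30045382, a count of 0 allows up to 0.0998 to 0.134 CPM (3 counts). These limits and Poisson intervals cover counting error only. Chi-square over degrees of freedom between replicates was 47.8 in Ppm1bCKO and 22.9 in Ppm1bfl/fl, so no pair was 1 library deposited again.

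The members and the gene lists were chosen with earlier results of these data known, so lists are described by counts and medians and were not tested as sets. Named outside the 10 genes are the 4 genes of each list with the smallest p, Mdm4, Ppm1d, Atm, Bcl2, Bcl2l1 and Mcl1 whatever their p, Ppm1b, and the 3 genes most like Trp53. Other names were chosen after their values were seen. Alternatives were DESeq2 1.42.0 and its size factors, total counts in place of TMM, limma-voom (limma 3.58.1), no low-count filter, at least 1 CPM in 2 libraries, the replicate number as a block, immunoglobulin genes left out, and each library left out. Removal of each library's trend with exonic length (lowess span 0.3) was added after the data were seen. Medians by length group used a pseudocount of 0.1 CPM. The edgeR fit was tested on simulated counts.

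Promoter windows of 300 bases (250 before to 50 after each start) came from RefSeq on GRCm38.p6, the assembly behind mm10. They were searched for the p53 half-site consensus of 10 bases. A full site was taken as a pair of half-sites up to 13 bases apart with at most 2 mismatches in all, none of them at the fixed C and G of a half-site. The consensus reads the same on both strands, so 1 scan covers both, and half-sites within a full site were also counted as half-sites.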

Additional observations from a re-analysis of the deposited data

How the results depend on the processing

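Of the 10 genes, 8 kept their sign in all 13 alternatives. With 1 library left out, Trp53 ran from -0.076 (without Ppm1bCKO replicate 2) to 0.19 on the log2 scale and Trp53inp1 from -0.39 to 0.10 (without Ppm1bfl/fl replicate 1). The cause of these reversals was not tested. The number of the 10 genes called ran from 0 to 1 with 1 library left out (Bax without Ppm1bCKO replicate 1) and was 0 in the other 9 alternatives. With 1 library left out, called p53 regulators ran from 0 to 9, other p53 targets from 0 to 7 and BCL2 family genes from 0 to 3, with the highest number of each without Ppm1bCKO replicate 1, where 3336 of 17177 genes were called. Without a low-count filter 2 other p53 targets were called (Perp and Rps27l). The median of the 10 genes ran from 0.07 to 0.19 over the alternatives.

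Over all genes edgeR called 61, against 311 without a low-count filter and 0 with immunoglobulin genes left out. With all genes kept, DESeq2 called 188 and limma-voom 50. The labels give same-numbered libraries no link but the number. The correlation of their deviations from the genotype means was 0.064. With 2 libraries a genotype, this value cannot decide whether the libraries were paired. With the replicate number as a block 207 genes were called over all and 1 other p53 target (Perp), and the log2 fold change of Bax was 0.44 and the median of the 10 genes 0.15. Low counts limit Phlda3, Bok and Cdkn2a.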
